A study of Xenopus laevis with 6 samples.

Results

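Buds of the liver were compared with buds of the stomach, both dissected from Xenopus laevis at stage 42, when the tadpole swims. The comparison took the 4 arrays whose titles name liver or stomach out of 6 in the series. Tissue was isolated 2 times independently, and each isolation gave 1 liver array and 1 stomach array, numbered alike. The remaining arrays held pancreas buds and were not part of the contrast. They served to estimate the spread between isolations, and they entered the mean intensity by which 1 probe set was picked to stand for a gene. All embryos were of mixed sex with no allele, treatment or transgene named in the labels, and the design text describes each bud as holding mesoderm beside its endoderm. Total RNA was hybridised to Affymetrix Xenopus laevis genome arrays, and the study compared the organs to learn which genes each of them expresses during endodermal organ differentiation. The sources used here do not give the number of embryos in an isolation.

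Liver and stomach both arise from the foregut, a stretch of endoderm wrapped in mesoderm. The hepatic bud gives rise to hepatocytes, which secrete most plasma proteins, make glucose from other fuels, break down amino acids and modify foreign compounds. The stomach bud gives rise to a glandular, mucus-secreting epithelium that pumps acid and releases proteases, inside a coat of smooth muscle with nerves. Xenopus laevis carries most of its genes as a pair of copies, named .L and .S after the long and short chromosomes of an ancestral genome duplication. Here each copy on the array counted as a gene of its own, and a short probe may bind the other copy as well.

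The arrays held 15491 probe sets beside control rows, of which 9304 carried exactly 1 gene symbol, and these stood for 7531 genes. Values below are deposited intensities on a linear scale. A pair of values for an organ gives isolation 1 and then isolation 2, and a log2 difference is liver minus stomach with its standard error (2 arrays per organ). A gene was called higher or lower in liver when its adjusted p from limma, corrected over all probe sets, was under 0.05. The median intensity was 100 on every array, and between 11.9% and 13.1% of the probe sets of a liver or stomach array lay under an intensity of 16. Log2 intensities of the liver arrays correlated with each other at 0.946 and those of the stomach arrays at 0.952 across probe sets, against 0.850 to 0.867 between a liver and a stomach array. These are descriptions over probe sets that share arrays.

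Among the 7531 genes, 438 were higher in liver (5.82%) and 402 were lower (5.34%). These shares of all genes are the background for the counts of every gene list below. Over all probe sets the same test called 766 higher (4.94%) and 719 lower (4.64%), and 3737 (24.1%) had an unadjusted p under 0.05. A ratio above 3 separated the organs for 290 of the higher genes (3.85%) and 297 of the lower ones (3.94%). The ratio passed 100 for 19 of the higher and for 8 of the lower genes. Every called gene lay on the same side in both isolations, and for 266 and 253 genes the ratio exceeded 3 in each isolation on its own. The calls were made from these same arrays, so this agreement follows largely from the selection and is no separate check. The median log2 difference of all genes was 0.04, on arrays that had each been scaled to the same median.

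The 2 directions differed in intensity. The 509 probe sets (3.29%) higher in liver with a ratio above 3 held 13.7% and 11.6% of the summed intensity of the liver arrays and 1.59% and 1.63% of that of the stomach arrays. Those lower in liver by the same limit numbered 520 (3.36%) and held 0.567% and 0.627% of the liver arrays, against 6.02% and 4.85% of the stomach arrays. Among probe sets with a mean over 1000, 8.62% were higher in liver and 2.87% lower, whereas between 16 and 100 the shares were 3.74% and 4.76%. The arrays shared a median but not their upper range. The 95th percentile was 1531 and 1426 on the liver arrays, against 1421 and 1243 on the stomach arrays. After quantile normalization, which gives all arrays the same distribution, 775 probe sets were higher and 828 lower. The part of scaling in these intensity shares was not tested.

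Fewer probe sets passed whenever an array was left out. Each such fit leaves 1 array in an organ, with 2 residual degrees of freedom in place of 3. The fall in the counts can therefore not be assigned to particular arrays. Leaving out stomach array 1 gave 193 probe sets higher and 110 lower, the smallest counts of the 4 such fits, and leaving out liver array 2 gave 360 and 390, the largest. The other fits gave 213 and 253 without liver array 1, and 270 and 239 without stomach array 2. In all 4 of these fits 69 of the higher genes and 54 of the lower genes were called, and such genes are named below as held in every left-out fit. With 2 arrays against 2, an exact permutation test of a single gene cannot give a two-sided p below 0.333, so all calls rest on the spread that limma pools over genes and organs. With the spread taken from the liver and stomach arrays alone, 483 probe sets were higher and 483 lower. Ratios of genes near the bottom of the scale depend on a few intensity units, so many are also given with 16 added to each intensity.

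**Figure D1:**
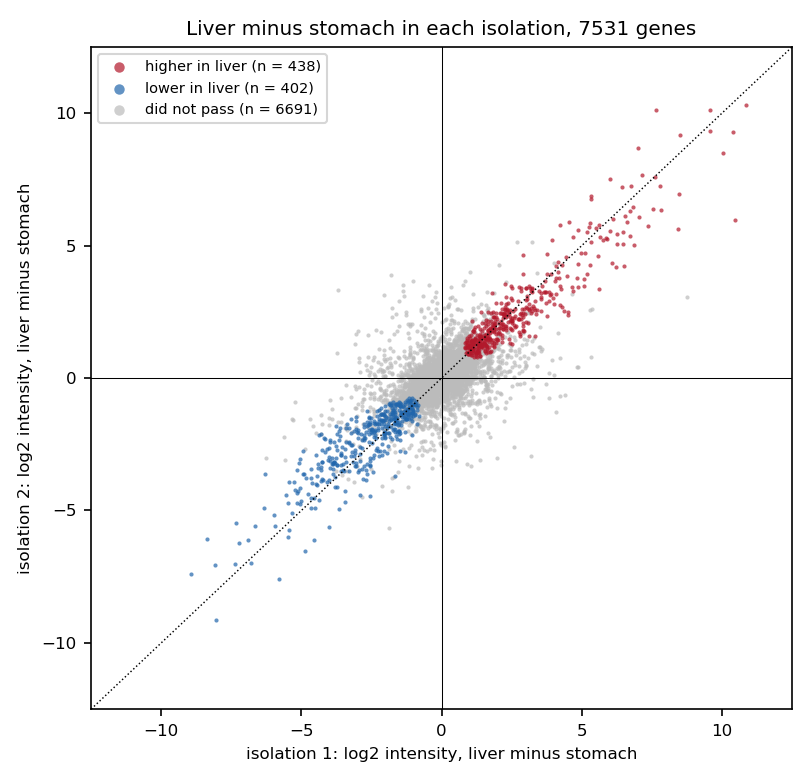
Each point is 1 of 7531 genes, placed by its log2 difference liver minus stomach in isolation 1 (horizontal axis) and in isolation 2 (vertical axis), with colours for the 438 genes higher in liver, the 402 lower and the 6691 that did not pass. Called genes lie in the corners where both isolations have the same sign, which follows largely from calling them on these same arrays.

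The labels were set beside genes that define each organ. Plasma protein genes lay far above the stomach level on both liver arrays. The 17 measured genes of coagulation, which hepatocytes make for the blood, summed to 93278 and 75650 on the liver arrays, against 2113 and 1636 on the stomach arrays. The gastric gland and mucous cell list of 29 genes summed to 3202 and 2887 in liver buds and to 38222 and 24056 in stomach buds. Both lists fell on the side that the labels name. Their members were chosen with earlier results of these data known, so this is no independent check of the labels. As in any bulk tissue, fewer cells of a type and less RNA per cell cannot be told apart.

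**Figure D2:**
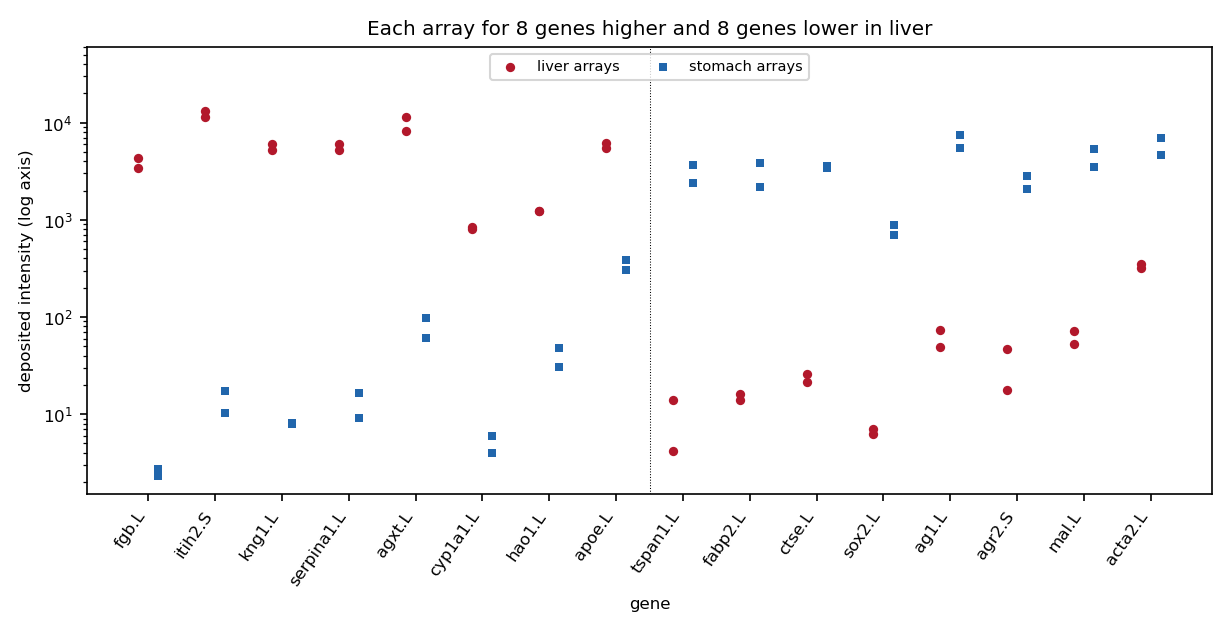
Intensity on a log axis of 8 genes higher in liver and 8 lower in liver, with a point for each liver array and each stomach array. The liver and stomach points do not overlap in any of the 16 genes. Genes named for the largest differences had to show no overlap, so this separation was in part fixed by the choice.

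Coagulation genes made the most uniform group: all 17 measured members were higher in liver (background 5.82%), with a median log2 difference of 6.56 against 0.04 over all genes. The fibrinogen beta chain gene fgb.L had intensities of 4375 and 3450.0 in liver buds and 2.33 and 2.71 in stomach buds, a log2 difference of 10.59 ± 0.94 (adjusted p = 0.00742). This was the largest ratio under the naming rule, 1546-fold, and 211-fold after adding 16 to each intensity, with stomach values near the bottom of the scale. Kininogen, kng1.L, the precursor of bradykinin, had 6088 and 5245 in liver buds against 7.93 and 8.10 in stomach buds (9.46 ± 0.62, adjusted p = 0.00509), a ratio of 705 and of 236 with 16 added, and it was held in every left-out fit. The fibrinogen alpha chain gene fga.L had 3056 and 1103 in liver buds and 2.91 and 3.09 in stomach buds (9.26 ± 1.13, adjusted p = 0.0136). For it the ratio was 612, or 97.6 with 16 added, and 1 other probe set of the gene, at a log2 difference of 6.16, gave another call. The naming rule for the largest differences required no overlap between the organs, so the separation of these genes was set by the choice.

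Inhibitors and activators of clotting followed the fibrinogen genes. Plasma kallikrein, klkb1.L, which releases bradykinin from kininogen, had 1642 and 1338 in liver buds and 12.8 and 3.21 in stomach buds (7.85 ± 1.36, adjusted p = 0.0306). Heparin cofactor II, serpind1.S, an inhibitor of thrombin, had 2303 and 2564 in liver buds and 11.7 and 13.4 in stomach buds (7.60 ± 1.17, adjusted p = 0.0224). Vitronectin, vtn.L, a plasma and matrix glycoprotein, had 8526 and 6571 in liver buds and 38.7 and 42.8 in stomach buds (7.52 ± 0.87, adjusted p = 0.0121). The smallest difference in the list was that of histidine-rich glycoprotein, hrg.L, which had 18729 and 16122 in liver buds, against 1047 and 765 in stomach buds (4.28 ± 0.41, adjusted p = 0.00786). With 16 added the ratio of klkb1.L was 63.7 in place of 231, and that of serpind1.S was 85.6 in place of 194. With liver array 1, liver array 2, stomach array 1 or stomach array 2 left out, 9, 12, 9 and 10 of the 17 passed, and 17 with the block.

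Complement genes encode the plasma cascade that opsonises and lyses microbes. Here 14 of 17 members were higher in liver, none was lower, and the median was 3.52. Complement component c4a.L had 1051 and 696 in liver buds against 4.58 and 8.52 in stomach buds (7.10 ± 0.45, adjusted p = 0.00509), a ratio of 137 and of 38.8 with 16 added. The pore component c8a.L had 7466 and 5859 in liver buds and 70.3 and 143 in stomach buds (6.05 ± 0.41, adjusted p = 0.00551). The central component c3.L had 6556 and 3615 in liver buds and 144 and 71.3 in stomach buds (5.58 ± 0.54, adjusted p = 0.008). Each of these genes was held in every left-out fit, as were masp2.S, a lectin pathway protease (log2 difference 5.66 ± 0.40), and cfb.L, complement factor B (5.56 ± 0.46). The control protease cfi.L, factor I, differed by 5.76 ± 0.53 (adjusted p = 0.00786). The members that did not pass were c1s.L, c1qc.L and the S copy of factor B. When liver array 1, liver array 2, stomach array 1 or stomach array 2 was dropped, 12, 12, 11 and 14 members passed.

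Carrier proteins and protease inhibitors of plasma summed to 118703 and 96785 in liver buds and to 7270 and 7440 in stomach buds. Of 15 such genes 9 were higher in liver, with 0 lower (median 4.18). Inter-alpha-trypsin inhibitor heavy chain itih2.S, which binds hyaluronan, had 13147 and 11505 in liver buds and 17.4 and 10.2 in stomach buds (9.85 ± 0.77, adjusted p = 0.00588), a ratio of 923 and of 416 with 16 added. The antitrypsin gene serpina1.L had 6018 and 5227 in liver buds and 16.4 and 9.10 in stomach buds (8.84 ± 0.84, adjusted p = 0.00786). Its S copy, serpina1.S, had 10134 and 7720.3 in liver buds, against 50.8 and 6.94 in stomach buds (8.88 ± 1.58, adjusted p = 0.0326). The L copy was held in every left-out fit and the S copy in none of them. With 16 added, the ratio of serpina1.L was 197 in place of 459 and that of serpina1.S was 226 in place of 471.

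Transport proteins for retinol, iron and vitamin D lay in the same class. Retinol-binding protein rbp4.L had 14064 and 12018 in liver buds and 163 and 80.6 in stomach buds (6.83 ± 1.12, adjusted p = 0.0262). Transferrin, tf.L, the iron carrier, had 11735 and 10687 in liver buds and 293 and 99.6 in stomach buds (6.03 ± 0.98, adjusted p = 0.0261). The vitamin D-binding protein gc.S had 12005 and 7273 in liver buds and 134 and 158 in stomach buds (6.01 ± 0.86, adjusted p = 0.0194). None of the 3 passed in any left-out fit, although their organs were far apart. Fetuin-B, fetub.S, differed by 5.21 ± 0.91 (adjusted p = 0.0312).

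The second retinol-binding protein copy, rbp4.S, had 13848 and 12649 in liver buds but also 2518 and 3507 in stomach buds (2.15 ± 0.41, adjusted p = 0.0382). Its call was lost with the isolation as a block (adjusted p = 0.0629). For ambp.L, the precursor of alpha-1-microglobulin and bikunin, the brightest probe set had 14158 and 13394 in liver buds and 1931 and 2216 in stomach buds (2.74 ± 0.26, adjusted p = 0.008), but its other probe sets disagreed, from a log2 difference of -0.18 to 5.94. Transthyretin, ttr.L, a thyroid hormone carrier, had 7448 and 2614 in liver buds and 1254 and 882 in stomach buds and did not pass (adjusted p = 0.0885, and 0.0449 with the block). The L copy of retinol-binding protein was thus separated from its stomach level by a ratio of 113 and the S copy by 4.45. In fits lacking liver array 1, liver array 2, stomach array 1 or stomach array 2, 3, 4, 2 and 3 members passed.

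Lipid carriers divided between the organs. Of 9 genes 4 were higher in liver and 2 lower. Apolipoprotein E, apoe.L, had 5512 and 6126 in liver buds and 306 and 384 in stomach buds (4.08 ± 0.24, adjusted p = 0.00456). The cholesterol-esterifying plasma enzyme lcat.L had 583 and 449.8 in liver buds and 36.6 and 64.5 in stomach buds (3.40 ± 0.33, adjusted p = 0.00824). Both were held in every left-out fit. Apolipoproteins that package lipid in liver and gut had log2 differences of 1.40 ± 0.26 for apoa1.S (adjusted p = 0.0366, and 0.0514 with the block) and 1.35 ± 0.24 for apob.S (adjusted p = 0.0341). The other probe set of apob.S, with the same call, lay at 2.89. The called genes on the other side were intracellular fatty acid-binding proteins. The intestinal type fabp2.L had 13.9 and 16.2 in liver buds against 3814 and 2151 in stomach buds (-7.58 ± 0.49, adjusted p = 0.00509), and fabp3.S had 25.2 and 36.3 in liver buds against 1184 and 784 in stomach buds (-4.99 ± 0.31, adjusted p = 0.00489). With any single array left out, 2 of the 9 were called higher and these 2 lower.

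Enzymes of amino acid breakdown were higher in liver in 14 of 41 genes and lower in 2 (median 0.71). The higher share was 34.1%, against 5.82% of all genes, and the lower share, 4.88%, was close to the 5.34% of all genes. Alanine-glyoxylate aminotransferase, agxt.L, a peroxisomal enzyme that removes glyoxylate, had 11468 and 8109.7 in liver buds and 61.3 and 98.4 in stomach buds (6.96 ± 0.42, adjusted p = 0.00487). Glycolate oxidase, hao1.L, which makes glyoxylate in the same organelle, had 1246 and 1222 in liver buds and 48.3 and 30.7 in stomach buds (5.0 ± 0.33, adjusted p = 0.00514). The last enzyme of tyrosine breakdown, fah.L, had 2751 and 2229.7 in liver buds and 69.4 and 116 in stomach buds (4.79 ± 0.35, adjusted p = 0.00551). These 3 genes and gldc.S, the glycine decarboxylase (3.84 ± 0.37), were held in every left-out fit. Cysteine dioxygenase, cdo1.L, had unequal liver arrays of 2382 and 520.0, against 6.91 and 10.5 in stomach buds (7.03 ± 0.84, adjusted p = 0.0129), and qdpr.L, which recycles the cofactor of phenylalanine hydroxylase, differed by 4.21 ± 0.43 (adjusted p = 0.00913).

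The 2 genes lower in liver encode mitochondrial enzymes of leucine breakdown, while auh.S (-0.35) and bckdhb.S (-0.27), of the same pathway and named after their values were seen, did not pass. The carboxylase subunit mccc2.S had 328 and 261 in liver buds and 903 and 632 in stomach buds (-1.37 ± 0.29, adjusted p = 0.0487). Isovaleryl-CoA dehydrogenase, ivd.S, had 108 and 110.1 in liver buds and 258 and 251 in stomach buds (-1.22 ± 0.19, adjusted p = 0.0217). Neither passed in any left-out fit. After removal of liver array 1, liver array 2, stomach array 1 or stomach array 2, 7, 14, 6 and 7 of the 41 were higher and none lower, and with the block 4 were lower. Within the naming rule, but in no list, hpd-like.2.L had 2142 and 1053 in liver buds and 1.60 and 1.66 in stomach buds (9.85 ± 1.2, adjusted p = 0.0134), a ratio of 922 and of 86.2 with 16 added. Of the 8 urea cycle genes only otc.S, ornithine transcarbamylase, was called, with 90.2 and 94.0 in liver buds and 25.6 and 34.9 in stomach buds (1.62 ± 0.27, adjusted p = 0.0282, and 0.0504 with the block).

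Genes of gluconeogenesis, fructose and glycogen metabolism were higher in liver in 8 of 21 cases with none lower (median 1.60). Glucose-6-phosphatase releases free glucose from the cell. One of its copies, g6pc1.3.L, had 2723 and 1159 in liver buds and 39.3 and 17.9 in stomach buds (6.07 ± 0.62, adjusted p = 0.00923), held in every left-out fit. Another, g6pc1.1.L, had 6360.4 and 2043 in liver buds and 166 and 38.9 in stomach buds (5.49 ± 1.12, adjusted p = 0.0466), and the call of a second probe set differed. The glucokinase regulator gckr.L had 3589 and 1066 in liver buds and 124 and 98.9 in stomach buds (4.14 ± 0.63, adjusted p = 0.0215). For each of these genes the first liver array was more than 2 times the second.

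Smaller differences in this list belonged to glycogen and transport genes. The glycogen-targeting phosphatase subunit ppp1r3c.1.S had 353 and 261 in liver buds and 19.1 and 23.8 in stomach buds (3.83 ± 0.25, adjusted p = 0.00509). The glucose-6-phosphate transporter slc37a4.L differed by 1.84 ± 0.38 (adjusted p = 0.0467) and the bifunctional enzyme pfkfb1.S by 1.73 ± 0.31 (adjusted p = 0.0335), and 1 other probe set of pfkfb1.S had another call. The committed gluconeogenic enzyme pck1.L did not pass: its liver arrays read 2512 and 197, its stomach arrays 64.7 and 33.4, and the adjusted p was 0.15 (0.0564 with the block). Fructose bisphosphatase, fbp1.L, passed only with the block (adjusted p = 0.168, and 0.0303 with the block). The summed intensity of the list was 31719 and 14585 in liver buds and 6642 and 4760 in stomach buds, with the 2 liver arrays further apart than the 2 stomach arrays. With liver array 1, liver array 2, stomach array 1 or stomach array 2 left out, 3, 5, 2 and 2 members passed, and with the 4 liver and stomach arrays alone 3 did.

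The list of retinoid enzymes, cytochromes P450 and conjugating enzymes gave calls in both directions, 10 of 40 higher in liver and 4 lower (median 0.47). The P450 gene cyp1a1.L, known for oxidising aromatic compounds, had 849 and 808 in liver buds and 5.97 and 4.0 in stomach buds (7.41 ± 0.38, adjusted p = 0.00408), a ratio of 169.5 and of 40.3 with 16 added. The bile acid pathway enzymes akr1d1.L and hsd3b7.L were also in this class. For akr1d1.L the values were 2283 and 1607 in liver buds and 21.1 and 10.6 in stomach buds (7.0 ± 0.51, adjusted p = 0.00551), and for hsd3b7.L they were 1994 and 1159 in liver buds and 36.6 and 31.0 in stomach buds (5.50 ± 0.45, adjusted p = 0.00644). These 3 were held in every left-out fit. Lesser differences were those of cyp4v2.1.L (3.27 ± 0.56), the retinol dehydrogenase rdh16.L (3.23 ± 0.50) and cyp4b1.L (2.92 ± 0.31).

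Glutathione transferases, which couple glutathione to reactive compounds, made up most of the lower class. The omega-class gene gsto1.S had 46.8 and 81.8 in liver buds against 3759 and 2438 in stomach buds (-5.61 ± 0.75, adjusted p = 0.0165). The alpha-class gene gsta1.L had 359.8 and 235 in liver buds against 4768 and 4075 in stomach buds (-3.92 ± 0.42, adjusted p = 0.00976), and the pi-class gene gstp1.L had 87.1 and 228 in liver buds against 2666 and 1535 in stomach buds (-3.84 ± 0.54, adjusted p = 0.019). The P450 gene cyp3a5.L was lower too, with 36.3 and 32.1 in liver buds and 1476 and 1087 in stomach buds (-5.21 ± 0.28, adjusted p = 0.00408), held in every left-out fit. P450 enzymes of the 3A family and alpha-class transferases are known from adult mammalian liver, and here cyp3a5.L and gsta1.L had higher intensities in the stomach bud. The copy gsta1.S and the other transferases of the list, gstm1.S, gstt1.L, mgst1.L, mgst3.L and mgst3.S, were not among the lower genes. When liver array 1, liver array 2, stomach array 1 or stomach array 2 was dropped, 5, 7, 3 and 4 members of the list were higher and 2, 4, 1 and 2 lower.

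Fatty acid oxidation showed no common direction, with 3 of 19 genes higher in liver, 2 lower and a median of -0.00. The shares were 15.8% and 10.5%, against 5.82% and 5.34% of all genes. The peroxisomal oxidase acox2.L, which acts on branched chains and bile acid precursors, had 655 and 723 in liver buds and 185 and 128 in stomach buds (2.16 ± 0.25, adjusted p = 0.0122). The carnitine carrier slc25a20.S differed by 1.34 ± 0.24 (adjusted p = 0.0317) and the isomerase ech1.L by 1.14 ± 0.24 (adjusted p = 0.0479, and 0.052 with the block). The mitochondrial carnitine acyltransferase cpt1b.L, the form of muscle in mammals, had 226 and 212 in liver buds and 1447 and 749 in stomach buds (-2.25 ± 0.40, adjusted p = 0.0317). The thiolase acaa2.L had 874 and 1238 in liver buds and 3919 and 3147 in stomach buds (-1.76 ± 0.27, adjusted p = 0.0217). With single arrays left out, at most 1 of the 19 was called in either direction, and with 16 added 6 were higher.

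Genes for entry into the endoplasmic reticulum and for folding there were higher in liver in 29 of 83 cases and lower in 1 (median 1.07). Both liver arrays were above both stomach arrays in 76 of the 83, against 30.1% of all genes. The disulfide isomerase pdia4.L had 1925 and 1836 in liver buds and 383 and 303 in stomach buds (2.46 ± 0.26, adjusted p = 0.00989). The chaperone hsp90b1.S had 3139.7 and 2988 in liver buds and 901 and 733 in stomach buds (1.91 ± 0.21, adjusted p = 0.0104), and its L copy hsp90b1.L had 6175 and 6184 in liver buds and 1967 and 1376 in stomach buds (1.91 ± 0.29, adjusted p = 0.0222). The co-chaperone dnajc3.L (2.05 ± 0.27) and the isomerase pdia6.S (1.86 ± 0.21) were higher as well, and creld2.S (1.95 ± 0.39) lost its call with the block (adjusted p = 0.0629). The single lower member was pdia2.L, a disulfide isomerase of the exocrine pancreas in mammals, with 9.59 and 17.0 in liver buds and 240.1 and 506 in stomach buds (-4.77 ± 0.49, adjusted p = 0.00945).

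These differences were modest in ratio and sensitive to the setting. With 16 added to each intensity 54 of the 83 passed as higher, 37 did with the block, and 16 did with the 4 liver and stomach arrays alone. In fits lacking liver array 1, liver array 2, stomach array 1 or stomach array 2, 2, 7, 1 and 1 passed as higher. The summed intensity of the list was 195008 and 178868 in liver buds and 91123 and 79152 in stomach buds.

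**Figure D3:**
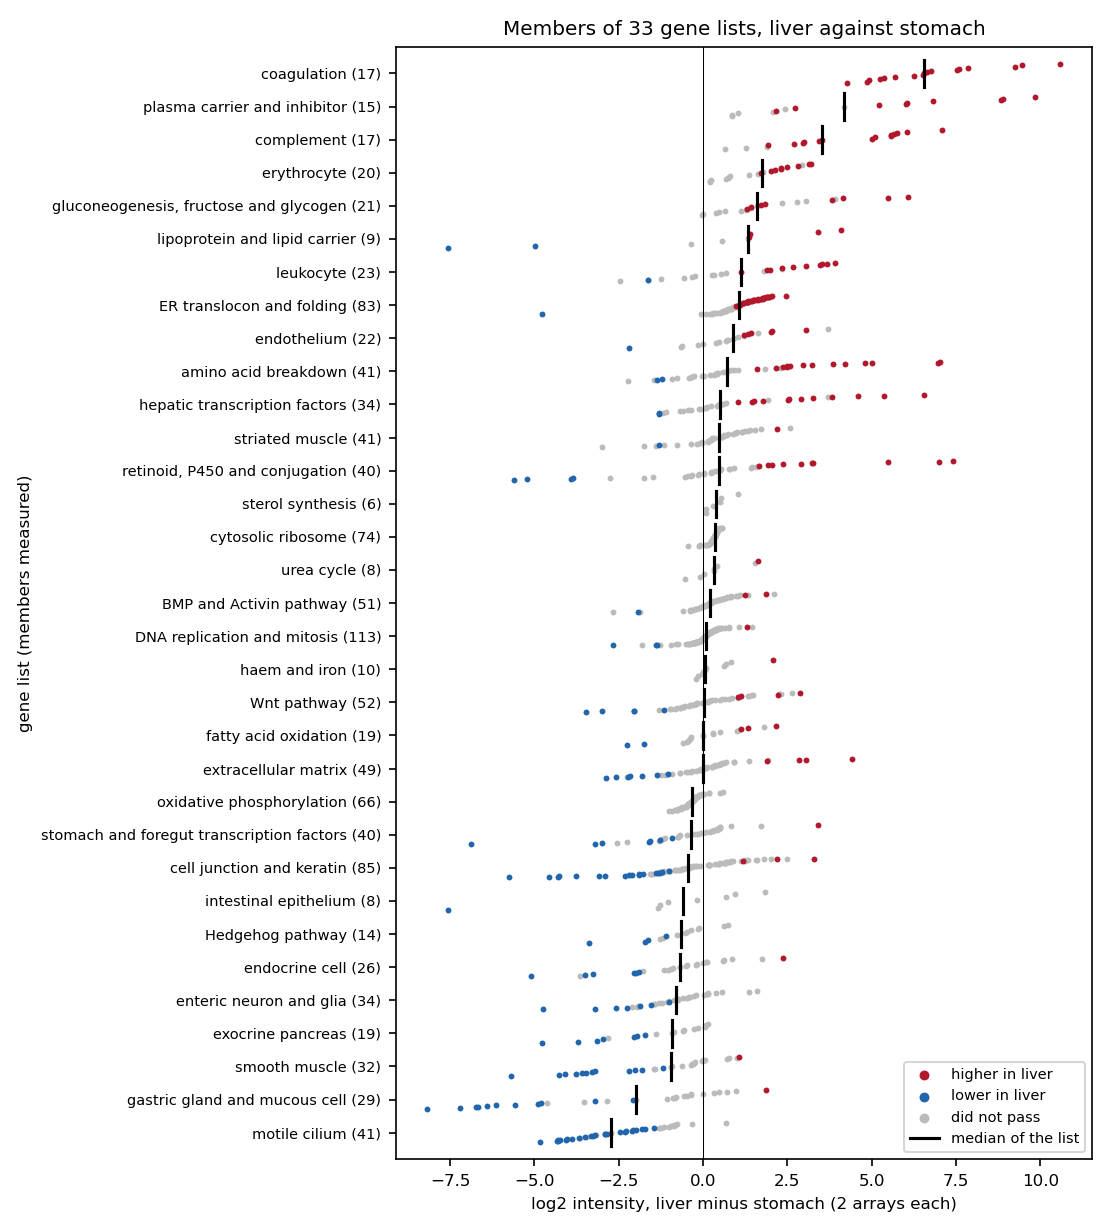
Log2 difference liver minus stomach of each measured member of the 33 gene lists (small points) with the median of each list (black line). Coagulation has the highest median, 6.56, and the motile cilium list the lowest, -2.72.

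Transcription factors named for hepatic development were higher in liver in 12 of 34 genes and lower in 2 (median 0.52). The higher share was 35.3%, against 5.82% of all genes, and the lower share, 5.88%, was close to the 5.34% of all genes. The nuclear receptor nr1h5.L, of the bile acid receptor family, had 849 and 985 in liver buds and 5.18 and 18.6 in stomach buds (6.54 ± 0.61, adjusted p = 0.00786), a ratio of 93.3 and of 34.4 with 16 added. Its S copy, nr1h5.S, had 551 and 538 in liver buds and 18.9 and 27.2 in stomach buds (4.59 ± 0.25, adjusted p = 0.00408). The homeodomain factor prox1.L, which hepatoblasts need to migrate out of the bud in the mouse, had 463 and 522 in liver buds and 24.1 and 50.9 in stomach buds (3.81 ± 0.39, adjusted p = 0.00945). These 3 genes were held in every left-out fit.

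The retinoid X receptor rxrg.L, a partner of many nuclear receptors, had 203 and 203 in liver buds and 2.26 and 10.7 in stomach buds (5.37 ± 0.73, adjusted p = 0.0172), a ratio of 41.3 and of 9.92 with 16 added. The nuclear receptor nr5a2.S had 172 and 240.0 in liver buds and 13 and 33.9 in stomach buds (3.27 ± 0.49, adjusted p = 0.0211), with another call in a second probe set. The bZIP factor cebpb.L had 846 and 873 in liver buds and 177 and 74.0 in stomach buds (2.91 ± 0.43, adjusted p = 0.0206). Factors that both foregut organs are known to carry differed in other ways. The forkhead factor foxa1.S had 1122 and 781 in liver buds and 2551 and 2100.3 in stomach buds (-1.31 ± 0.27, adjusted p = 0.0468). The zinc finger factor gata5.S had 261 and 256 in liver buds and 666 and 607 in stomach buds (-1.3 ± 0.19, adjusted p = 0.0194).

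Among the hepatic factors that did not pass was hhex.L, a homeodomain factor of the early liver bud, with 119.9 and 139 in liver buds and 11.2 and 8.83 in stomach buds (3.70 ± 0.83, adjusted p = 0.0593). It is named here after its values were seen. So is gata4.L, which had 1331 and 1129 in liver buds and 976 and 753 in stomach buds (0.52 ± 0.27, adjusted p = 0.32). After removal of liver array 1, liver array 2, stomach array 1 or stomach array 2, 4, 4, 5 and 7 hepatic factors passed as higher (7 with the 4 liver and stomach arrays alone), and gata5.S and foxa1.S passed in none of these fits.

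Factors of the stomach and foregut region were lower in liver in 7 of 40 genes and higher in 1 (median -0.36). The SRY-box factor sox2.L, which marks the anterior foregut and stomach epithelium, had 6.28 and 7.01 in liver buds and 700.2 and 882 in stomach buds (-6.89 ± 0.99, adjusted p = 0.0196). The ratio was 118 and 35.4 with 16 added, and a second probe set, at a log2 difference of -4.70, did not carry the same call. The homeodomain factor nkx2-3.S, of gut mesoderm in the mouse, had 9.13 and 9.68 in liver buds and 69.8 and 106 in stomach buds (-3.19 ± 0.30, adjusted p = 0.00786), and it was the one lower gene held in every left-out fit. Its relative nkx2-5.S had 37.2 and 36.4 in liver buds and 101 and 125 in stomach buds (-1.61 ± 0.26, adjusted p = 0.026).

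The forkhead factor foxf1.L, of the mesoderm around the gut, had 242 and 275 in liver buds and 729 and 791 in stomach buds (-1.56 ± 0.22, adjusted p = 0.0186). Of 12 Hox and Meis genes in the list 3 were lower, against 5.34% of all genes. These were hoxc5.L by a log2 difference of -2.99 ± 0.45 (adjusted p = 0.0216) and meis2.L by -1.27 ± 0.22 (adjusted p = 0.0289). The last was hoxa3.S, named after its values were seen, by -0.91 (adjusted p = 0.0421). The other Hox and Meis members did not pass. The T-box repressor tbx2.L was the exception of the list, with 663 and 837 in liver buds and 88.8 and 54.8 in stomach buds (3.42 ± 0.32, adjusted p = 0.00786), held in every left-out fit. With liver array 1, liver array 2, stomach array 1 or stomach array 2 left out, 3, 3, 1 and 1 members passed as lower.

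**Figure D4:**
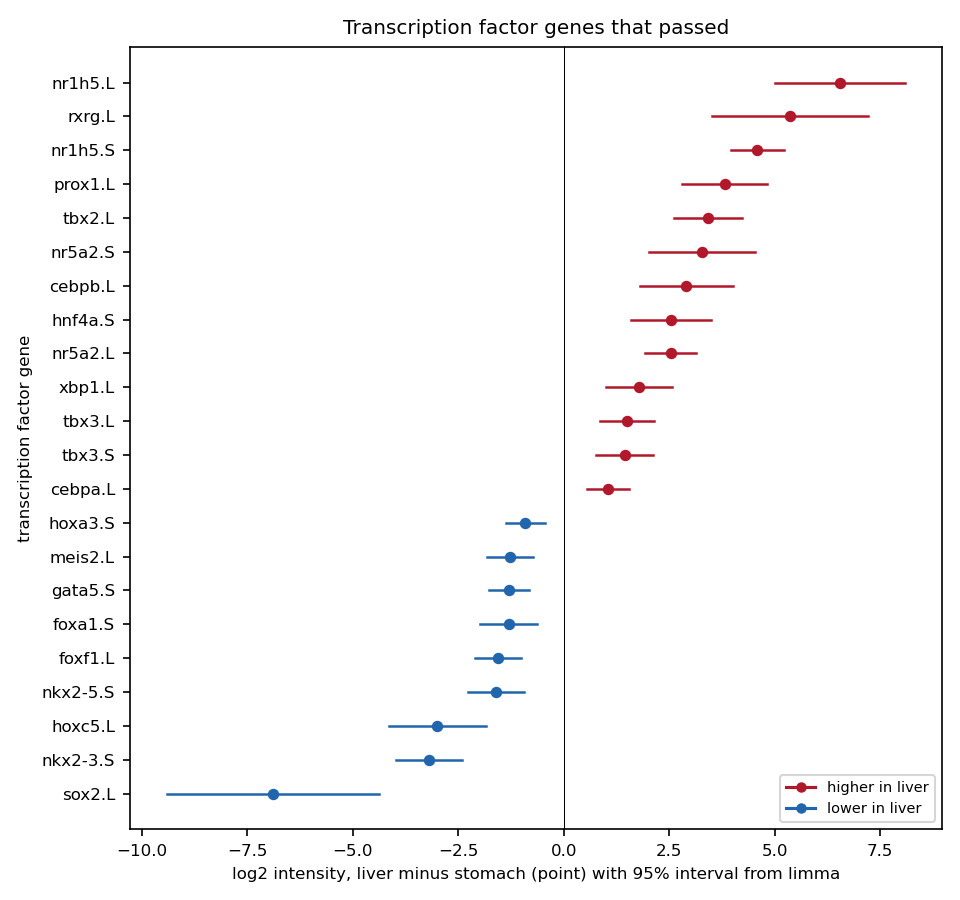
Log2 difference liver minus stomach with its 95% confidence interval from limma for the 22 called genes of the 2 transcription factor lists, 13 higher and 9 lower in liver. The intervals of nr1h5.L and sox2.L lie furthest from 0 on their sides.

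Blood cell markers were higher in the liver bud, in which the deposited table gives no way to separate blood from hepatocytes. The erythrocyte list had 9 of 20 members higher in liver and 0 lower (median 1.76), and the list summed to 47351 and 52925 in liver buds, against 10536 and 11536 in stomach buds. The globin gene hba2.L had 11342 and 10324 in liver buds and 1719 and 1357 in stomach buds (2.82 ± 0.22, adjusted p = 0.00588), held in every left-out fit. Another globin gene, hbd.S, had 18988 and 17215 in liver buds and 4168 and 4707 in stomach buds (2.03 ± 0.20, adjusted p = 0.008). The red cell anion exchanger slc4a1.L had 218 and 201 in liver buds and 28.9 and 48.0 in stomach buds (2.49 ± 0.30, adjusted p = 0.0129).

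Further red cell genes in this class were hba4.S (3.20 ± 0.52), hba-l5.L (2.30 ± 0.32) and bpgm.S, the enzyme of 2,3-bisphosphoglycerate synthesis (2.30 ± 0.32, a ratio of 4.94 and of 2.20 with 16 added). The erythroid factor gata1.S, at 45.5 and 79.1 in liver buds and 6.32 and 7.42 in stomach buds, lost its call with the block (adjusted p = 0.031, and 0.0616 with the block). Globin copies resemble each other, so a probe set may read more than one of them. Globin intensity was not 0 in stomach buds. The part of blood in the other liver differences was not tested. When liver array 1, liver array 2, stomach array 1 or stomach array 2 was dropped, 4, 3, 1 and 4 members passed.

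Leukocyte markers gave 10 of 23 higher in liver and 1 lower (median 1.13), with sums of 6973 and 5179 in liver buds and 2718 and 2482 in stomach buds. The granulocyte growth factor receptor csf3r.L had 336 and 213 in liver buds and 19.7 and 15.7 in stomach buds (3.93 ± 0.29, adjusted p = 0.00585), held in every left-out fit. Myeloperoxidase, an enzyme of granulocytes, had 1032 and 614 for mpo.L in liver buds and 79.9 and 48.6 in stomach buds (3.68 ± 0.43, adjusted p = 0.0127), and its S copy mpo.S differed by 3.54 ± 0.57 (adjusted p = 0.0253). The gelatinase mmp9.1.S (3.06 ± 0.42) and the actin bundler lcp1.S (2.67 ± 0.39) were higher too. Of the 2 probe sets of mmp7.L the brighter was higher (3.46 ± 0.52) and the other lay at -0.19. The kinase lyn.L was lower (-1.62 ± 0.25, adjusted p = 0.0223). In fits lacking liver array 1, liver array 2, stomach array 1 or stomach array 2, 3, 6, 2 and 3 members passed as higher.

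Endothelial markers followed with 6 of 22 higher in liver and 1 lower (median 0.89). Their sum was 3690 and 3743 in liver buds and 2392 and 1854 in stomach buds. The apelin receptor aplnr.S had 205 and 158 in liver buds and 17.6 and 27.1 in stomach buds (3.04 ± 0.31, adjusted p = 0.00945), and its L copy aplnr.L differed by 2.03 ± 0.38 (adjusted p = 0.0361). The vascular factors sox18.L (2.05 ± 0.21) and fli1.S (1.43 ± 0.19) and the angiopoietin receptor tek.S (1.33 ± 0.23) were called as well, and egfl7.S lost its call with the block (adjusted p = 0.0455, and 0.0504 with the block). The lower member was ets2.S, which also lost its call with the block (adjusted p = 0.0452, and 0.0548 with the block). After removal of liver array 1, liver array 2, stomach array 1 or stomach array 2, 1, 2, 0 and 1 members passed as higher.

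On the stomach side the largest ratio among named genes was that of tspan1.L, a tetraspanin of epithelial membranes. Its intensities were 13.9 and 4.22 in liver buds, against 3677 and 2400.4 in stomach buds (-8.60 ± 0.60, adjusted p = 0.00551), a ratio of 388 and of 122 with 16 added. The S copy tspan1.S had 18.4 and 11.4 in liver buds and 2187 and 785 in stomach buds (-6.50 ± 0.57, adjusted p = 0.00727). The galectin gene lgals4.1.s had 1.88 and 7.08 in liver buds and 621 and 478 in stomach buds (-7.22 ± 0.71, adjusted p = 0.0082), a ratio of 149 and of 27.6 with 16 added. A calpain protease gene, capn13.L, had 12.2 and 5.91 in liver buds and 550.4 and 379 in stomach buds (-5.75 ± 0.46, adjusted p = 0.00612). Both tspan1 copies and capn13.L were held in every left-out fit.

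Genes of gastric glands and mucous cells were lower in liver in 11 of 29 cases (background 5.34%) and higher in 1, with a median of -1.98. The proton pump subunit atp4b.S, part of the ATPase that acidifies the stomach, had 14.5 and 13.4 in liver buds and 7141 and 2264 in stomach buds (-8.17 ± 1.43, adjusted p = 0.0311). The ratio was 288 and 135 with 16 added, and the call was lost with the block (adjusted p = 0.0596) and in every left-out fit. Cathepsin E, an aspartic protease of gastric epithelium in mammals, had 21.5 and 26.2 for ctse.L in liver buds and 3564 and 3379 in stomach buds (-7.19 ± 1.04, adjusted p = 0.0196). For its S copy, ctse.S, the values were 21.4 and 3.43 in liver buds and 1179 and 655 in stomach buds (-6.68 ± 1.22, adjusted p = 0.0349), and this call too was lost with the block (adjusted p = 0.0695). Both cathepsin E copies lost their call in every left-out fit.

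Anterior gradient proteins belong to the disulfide isomerase family and are known from mucus-secreting cells. The first of them, ag1.L, had 49.0 and 73.0 in liver buds and 7417 and 5541 in stomach buds (-6.74 ± 0.65, adjusted p = 0.00796). The related agr2.S had 17.6 and 46.6 in liver buds and 2836 and 2057 in stomach buds (-6.40 ± 0.49, adjusted p = 0.00588), a ratio of 84.4 and of 53.0 with 16 added, held in every left-out fit. The apical transport proteolipid mal.L had 52.3 and 71.1 in liver buds and 5324 and 3454 in stomach buds (-6.14 ± 0.64, adjusted p = 0.00946). The potassium channel subunit kcne3.S was the higher member, with 149 and 98.8 in liver buds and 27.5 and 39.6 in stomach buds (1.88 ± 0.32, adjusted p = 0.0291, and 0.0519 with the block). With liver array 1, liver array 2, stomach array 1 or stomach array 2 left out, 6, 8, 3 and 6 members passed as lower.

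Smooth muscle genes, which encode the contractile apparatus of the gut wall, were lower in liver in 12 of 32 cases and higher in 1 (median -0.94). Smooth muscle actin, acta2.L, had 353 and 317 in liver buds and 6909 and 4649 in stomach buds (-4.08 ± 0.37, adjusted p = 0.00775). Transgelin, tagln.L, an actin-binding protein, had 141 and 94.8 in liver buds and 1956 and 1258 in stomach buds (-3.76 ± 0.36, adjusted p = 0.00786). The S copy of tropomyosin 2, tpm2.S, had 44.5 and 48.2 in liver buds and 676 and 454 in stomach buds (-3.58 ± 0.26, adjusted p = 0.00556). All 3 were held in every left-out fit.

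The smooth muscle myosin heavy chain gene myh11.S had 34.0 and 6.17 in liver buds and 983 and 576 in stomach buds (-5.70 ± 0.83, adjusted p = 0.0199), a ratio of 52.0 and of 23.1 with 16 added. Desmin, the intermediate filament of muscle, had 36.9 and 82.5 for des.1.S in liver buds and 1102 and 1020.1 in stomach buds (-4.26 ± 0.41, adjusted p = 0.00786). Calponin 1, cnn1.S, differed by -3.47 ± 0.45 (adjusted p = 0.0157). The higher member was cnn3.L, a calponin that is not limited to muscle, with 2379 and 2325 in liver buds and 1098 and 1127 in stomach buds (1.08 ± 0.18, adjusted p = 0.0273). The list summed to 13656 and 12543 in liver buds and to 30127 and 22368 in stomach buds. When liver array 1, liver array 2, stomach array 1 or stomach array 2 was dropped, 8, 7, 4 and 6 members passed as lower.

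Striated muscle genes, included as a marker of neighbouring body wall or heart, gave 1 of 41 higher and 1 lower. Each share was 2.44%, below the 5.82% and 5.34% of all genes. The fast troponin C gene tnnc2.L had 43.4 and 20.2 in liver buds and 6.31 and 6.73 in stomach buds (2.19 ± 0.39, adjusted p = 0.0338). Muscle creatine kinase, ckm.L, had 679 and 734 in liver buds and 2070.2 and 1454 in stomach buds (-1.3 ± 0.27, adjusted p = 0.0496), but its other probe sets had the opposite sign, at 1.13 and 0.41, and the call was lost with the block (adjusted p = 0.0755). The ckm.L difference therefore has no settled direction. The list summed to 2651 and 2672 in liver buds and to 3591 and 2898 in stomach buds, and ckm.L held a large part of each sum. The sums therefore give no direction for the other members. The median log2 difference of the list was 0.47. Both liver arrays lay above both stomach arrays in 22 of the 41 genes, against 30.1% of all genes. They lay below both in 5, against 27.1% of all genes.

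Extracellular matrix genes were called in both directions, 4 of 49 higher in liver (8.16%, against 5.82% of all genes) and 7 lower (14.3%, against 5.34%). The median was -0.01, and the higher share is not far from the background. The collagen-processing enhancer pcolce.S had 4269.5 and 2081 in liver buds and 128 and 154 in stomach buds (4.41 ± 0.38, adjusted p = 0.007), held in every left-out fit. Fibronectin, fn1.S, which circulates in plasma as well, had 8041 and 5432 in liver buds and 1004 and 851 in stomach buds (2.84 ± 0.36, adjusted p = 0.0148), with 1 of its other probe sets at 0.27 and not called. The metalloprotease inhibitor timp2.L differed by 1.90 ± 0.19 (adjusted p = 0.0082). Of 14 collagen genes in the list 3 were lower, against 5.34% of all genes, and none higher.

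Type VI collagen had 151 and 136 for col6a1.L in liver buds and 803 and 552 in stomach buds (-2.22 ± 0.40, adjusted p = 0.0349), and col6a2.L differed by -1.81 ± 0.31 (adjusted p = 0.0301). Type III collagen, col3a1.S, had 583 and 385 in liver buds and 2386 and 1873 in stomach buds (-2.16 ± 0.32, adjusted p = 0.0202), while its other probe sets, at -0.61 and -0.79, were not called. Lower members also included pcolce2.S (-2.88 ± 0.43), the fibrillin fbn3.L (-1.36 ± 0.22) and matn4.L (-2.57 ± 0.50), the last with an adjusted p of 0.0722 with the block. In fits lacking liver array 1, liver array 2, stomach array 1 or stomach array 2, 3, 4, 1 and 3 members passed as higher and 0, 2, 0 and 0 as lower, with 3 lower in the 4 liver and stomach arrays alone.

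Of the 33 lists, motile cilium had the most genes called lower in liver. Motile cilia beat by dynein arms on an axoneme and are carried in large numbers by multiciliated cells. Of 41 genes 25 were lower in liver and none higher, and in 39 both stomach arrays lay above both liver arrays, against 27.1% of all genes. The median log2 difference was -2.72, and -1.97 with 16 added. Summed intensity was 6583 and 7158 in liver buds and 24187 and 18093 in stomach buds.

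The 6 genes with the largest differences encode axonemal proteins, adenylate kinases and a dynein chain. The axonemal protein gene cfap52.S had 5.11 and 6.75 in liver buds and 167 and 167 in stomach buds (-4.83 ± 0.46, adjusted p = 0.00786), a ratio of 28.4 and of 8.35 with 16 added. The axonemal gene cfap45.L had 5.24 and 7.09 in liver buds and 151 and 98.1 in stomach buds (-4.32 ± 0.55, adjusted p = 0.0152), and tektin 2, tekt2.S, had 8.57 and 6.84 in liver buds and 186 and 113 in stomach buds (-4.25 ± 0.34, adjusted p = 0.00638). Adenylate kinases of cilia differed by -4.31 ± 0.51 for ak8.L (adjusted p = 0.0129) and -4.31 ± 0.68 for ak7.S (adjusted p = 0.0235), and the dynein intermediate chain dnai4.S differed by -4.07 ± 0.66 (adjusted p = 0.0254). Of these 6 genes tekt2.S was held in every left-out fit.

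Several cilium genes are named here after their values were seen. The cyclin-like regulator ccno.L, needed for centriole amplification in multiciliated cells, had 63.0 and 77.4 in liver buds and 679 and 615 in stomach buds (-3.21 ± 0.22, adjusted p = 0.00551). The radial spoke gene rsph1.L had 34.8 and 37.1 in liver buds and 732 and 389.5 in stomach buds (-3.89 ± 0.36, adjusted p = 0.00786). Both were held in every left-out fit. The forkhead factor foxn4.S, which acts in multiciliated cells of the Xenopus epidermis, had 51.6 and 66.0 in liver buds and 215 and 288 in stomach buds (-2.09 ± 0.30, adjusted p = 0.0191). After removal of liver array 1, liver array 2, stomach array 1 or stomach array 2, 8, 11, 4 and 14 members passed as lower. With 16 added, 33 passed.

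Genes of cell junctions, keratins and surface epithelium were lower in liver in 18 of 85 cases and higher in 3 (median -0.44). The cornifelin gene cnfn.1.S had 18.4 and 20.1 in liver buds and 499 and 416 in stomach buds (-4.57 ± 0.20, adjusted p = 0.00408), while its L copy, cnfn.1.L, had 77.2 and 96.8 in liver buds and 4784 and 4603 in stomach buds (-5.76 ± 0.88, adjusted p = 0.0219). Galectin 3, lgals3.L, had 77.9 and 93.1 in liver buds and 1913 and 1458 in stomach buds (-4.29 ± 0.25, adjusted p = 0.00456). The tight junction protein claudin 4, cldn4.L, had 35.4 and 80.2 in liver buds and 1079.5 and 978 in stomach buds (-4.27 ± 0.42, adjusted p = 0.00819). Of these genes cnfn.1.S and lgals3.L were held in every left-out fit, and cnfn.1.L passed in none of them.

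Keratins and annexins followed. The keratin krt19.L, of simple epithelium, had 1126 and 1616 in liver buds and 4576 and 4790.0 in stomach buds (-1.80 ± 0.28, adjusted p = 0.0223), and krt12.5.S differed by -3.75 ± 0.55 (adjusted p = 0.0202). Annexin anxa1.2.S had 65.7 and 57.5 in liver buds and 624 and 442 in stomach buds (-3.10 ± 0.24, adjusted p = 0.00588). The higher members were the cadherin cdh2.S (3.28 ± 0.45, adjusted p = 0.0173), the gap junction gene gjb2.L (2.19 ± 0.45, adjusted p = 0.0468) and anxa4.L (1.19 ± 0.23, adjusted p = 0.0386). Cadherin 2 and connexin 26 are junction proteins known from hepatocytes. The ratio of cdh2.S was 9.70, and 2.91 with 16 added. Its L copy, cdh2.L, had the opposite sign, at -1.23, and did not pass (adjusted p = 0.351). As higher, 4 members passed with the block and 1 with the 4 liver and stomach arrays alone. With liver array 1, liver array 2, stomach array 1 or stomach array 2 left out, 6, 10, 3 and 8 members passed as lower, and with 16 added 6 passed as higher.

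Endocrine cell genes were lower in liver in 6 of 26 cases and higher in 1 (median -0.68). Chromogranin A, chga.L, a protein of hormone granules, had 51.9 and 62.1 in liver buds and 733 and 556 in stomach buds (-3.49 ± 0.24, adjusted p = 0.00551). Secretogranin III, scg3.L, had 1.84 and 1.77 in liver buds and 82.9 and 46.5 in stomach buds (-5.11 ± 0.39, adjusted p = 0.00588), a ratio of 34.4 and of 4.42 with 16 added. Both were held in every left-out fit. Somatostatin, sst.1.L, a hormone of gastric D cells and of the pancreas, had 39.1 and 59.7 in liver buds and 819 and 268 in stomach buds (-3.28 ± 0.66, adjusted p = 0.0445, and 0.0566 with the block).

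The endocrine differentiation factor insm1.L (-1.98 ± 0.20), the prohormone convertase pcsk2.L (-2.05 ± 0.33) and the peptide gene vip.L (-1.90 ± 0.24) were the other lower members. The amidating enzyme pam.L was higher, with 105 and 92.4 in liver buds and 14.1 and 26.3 in stomach buds (2.36 ± 0.34, adjusted p = 0.0195). Insulin, ins.L, named after its values were seen, had 57.9 and 66.2 in liver buds and 45.7 and 73.0 in stomach buds and did not pass (adjusted p = 0.877). The list summed to 1007 and 1060 in liver buds and to 2944 and 2055 in stomach buds, and its members passed as lower in 4, 4, 2 and 2 cases without liver array 1, liver array 2, stomach array 1 or stomach array 2.

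Neuronal and glial genes, chosen for the enteric nervous system, were lower in liver in 7 of 34 cases with none higher (median -0.81). Synaptotagmin 1, syt1.L, the calcium sensor of vesicle release, had 51.5 and 63.9 in liver buds and 1829.6 and 1288 in stomach buds (-4.74 ± 0.43, adjusted p = 0.00748), held in every left-out fit. Peripherin, prph.L, a filament of peripheral neurons, had 42.2 and 49.7 in liver buds and 286 and 164 in stomach buds (-2.24 ± 0.31, adjusted p = 0.0189). The RNA-binding protein elavl4.L differed by -2.59 ± 0.43 (adjusted p = 0.0281) and dpysl3.S by -1.56 ± 0.29 (adjusted p = 0.0356).

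The nitric oxide synthase nos1.L (-3.21 ± 0.58) and the neuronal tubulin tubb3.L (-1.87 ± 0.31) lost their calls with the block, at adjusted p of 0.0538 and 0.0526. The list summed to 1971 and 2117 in liver buds and to 5707 and 4706 in stomach buds. When liver array 1, liver array 2, stomach array 1 or stomach array 2 was dropped, 1, 5, 1 and 2 members passed as lower, with 16 added 11 did, and with the 4 liver and stomach arrays alone 3 did. Synaptotagmins also act in endocrine cells, and the part of nerve tissue in the stomach-side differences was not tested.

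Digestive enzyme genes of the exocrine pancreas, a neighbouring organ, were lower in liver in 7 of 19 cases with none higher (median -0.92). Their sum was 657 and 934 in liver buds and 4662 and 5778 in stomach buds. Chymotrypsinogen, ctrb1.L, had 142 and 373 in liver buds and 2729.7 and 3351 in stomach buds (-3.72 ± 0.49, adjusted p = 0.0161). The chymotrypsin-like gene ctrl.L had 70.9 and 89.0 in liver buds and 627 and 792 in stomach buds (-3.15 ± 0.28, adjusted p = 0.00727), and carboxypeptidase A1, cpa1.L, had 25.2 and 19.8 in liver buds and 149 and 200.5 in stomach buds (-2.95 ± 0.30, adjusted p = 0.00925). The last 2 genes and pdia2.L were held in every left-out fit.

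The lipase cel.2.S (-1.95 ± 0.37), dnase1 (-2.05 ± 0.41) and the chymotrypsin gene ctrc.L (-1.72 ± 0.32) lost their calls with the block, at adjusted p of 0.0671, 0.0774 and 0.0506, and 4 of the 19 were lower with the block. In 12 of the 19 the organs were not separated by the test. Whether these enzymes were made in the stomach bud or in pancreatic tissue left on it was not tested, and their part in the other stomach-side differences was not tested. In fits lacking liver array 1, liver array 2, stomach array 1 or stomach array 2, 4, 4, 3 and 3 members passed. Of the 8 genes counted as intestinal epithelium only fabp2.L was called. The gene lgals4.1.s, lower in liver as given above, was counted neither here nor among the cell junction genes, unlike lgals4.1.L and lgals4.2.L. Its symbol ends in a lower-case s, which the matching of symbols to lists missed.

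Signalling lists differed in their share of called genes. Hedgehog ligands of the gut epithelium signal to the surrounding mesoderm through the receptor complex of Ptch and Smo and the Gli factors. Of 14 such genes 4 were lower in liver (28.6%, against 5.34% of all genes) and none higher (median -0.65). The ligand dhh.L had 3.69 and 5.53 in liver buds and 42.3 and 52.5 in stomach buds (-3.38 ± 0.44, adjusted p = 0.0155), a ratio of 10.4 and of 3.07 with 16 added. The transcription factor gli3.L had 36.7 and 37.8 in liver buds and 106 and 124 in stomach buds (-1.62 ± 0.20, adjusted p = 0.0137), and the co-receptor boc.L differed by -1.11 ± 0.20 (adjusted p = 0.0344). The transducer smo.S lost its call with the block (adjusted p = 0.0352, and 0.0562 with the block). The ligand shh.L, named after its values were seen, had 133 and 241 in liver buds and 96.1 and 120.4 in stomach buds and did not pass (adjusted p = 0.289). With stomach array 2, stomach array 1 or liver array 1 left out no member passed, and without liver array 2 there was 1.

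Wnt pathway genes were called in both directions, 4 of 52 higher in liver (7.69%, against 5.82% of all genes) and 5 lower (9.62%, against 5.34%), with a median of 0.02. These shares are not far from the background, so the values below describe single genes. The feedback target axin2.L had 205 and 183 in liver buds and 23.4 and 30.0 in stomach buds (2.87 ± 0.22, adjusted p = 0.00588). The secreted Wnt-binding protein sfrp2.S had 73.3 and 119 in liver buds and 1115 and 960.0 in stomach buds (-3.47 ± 0.30, adjusted p = 0.00715). These were the 2 members held in every left-out fit. The related sfrp1.L differed by -2.04 ± 0.23 (adjusted p = 0.0107).

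Some ligands and receptors of the pathway were also called. The ligand wnt5a.S had 9.82 and 4.02 in liver buds and 53.5 and 47.3 in stomach buds (-3.0 ± 0.51, adjusted p = 0.0297, and 0.0571 with the block), and its receptor ror2.L differed by -2.06 ± 0.22 (adjusted p = 0.00976). The ligand wnt5b.S lay on the other side, with 71.4 and 37.0 in liver buds and 10.2 and 11.7 in stomach buds (2.24 ± 0.35, adjusted p = 0.0231), as did wnt7b.L (1.04 ± 0.19) and the receptor fzd7.L (1.14 ± 0.22), for which 2 of 4 other probe sets had another call. The repressor tcf7l1.L lost its call with the block (adjusted p = 0.0421, and 0.0608 with the block). Without liver array 1, liver array 2, stomach array 1 or stomach array 2, 1, 3, 1 and 3 members passed as higher and 2, 3, 2 and 2 as lower. With 16 added the counts were 7 and 8, and with the 4 liver and stomach arrays alone 1 was higher.

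BMP and Activin genes gave 2 of 51 higher (3.92%, against 5.82% of all genes) and 1 lower (1.96%, against 5.34%), with a median of 0.19. Both shares were below the background. With 16 added 5 were higher and 2 lower. The pseudoreceptor bambi.S had 107 and 149 in liver buds and 30.7 and 39.3 in stomach buds (1.86 ± 0.26, adjusted p = 0.0182). The protease bmp1.S differed by 1.25 ± 0.20 (adjusted p = 0.0243). Its other probe sets lay at 1.66 and 1.83, and 1 of them had another call. The BMP antagonist noggin, nog.L, had 24.5 and 34.4 in liver buds and 115 and 106 in stomach buds (-1.92 ± 0.25, adjusted p = 0.0157).

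Core cell functions gave few or no calls. Of 74 cytosolic ribosome genes 0 passed in limma and 1 had an unadjusted p under 0.05, against 25.8% of all genes. Both liver arrays lay above both stomach arrays in 62 (against 30.1% of all genes), with a median log2 difference of 0.34. The direction of this list depends on the scaling: after quantile normalization its median was -0.08. Of 66 oxidative phosphorylation genes 0 passed in limma and 16 had an unadjusted p under 0.05. That count is close to the background, 25.8% of all genes. In 41 of them both stomach arrays lay above both liver arrays (against 27.1% of all genes). The median was -0.33, and -0.59 after quantile normalization, and 3 were lower with 16 added and 2 after quantile normalization. The bright ribosomal genes rps27.S, rpl19.L, rpl10.S, rplp0.S and rps13.L, chosen because their 95% intervals lie within a log2 difference of 1 either way, had differences of 0.42, 0.40, 0.38, 0.35 and 0.28, all of them at or below 0 after quantile normalization. For rps27.S the interval ran from -0.15 to 0.98, and for rps13.L from -0.26 to 0.81. ATP synthase subunits atp5f1a.L (-0.09 ± 0.23, adjusted p = 0.863) and atp5mc3.S (0.04 ± 0.19, adjusted p = 0.929) did not pass, and their signs turned in some fits.

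In DNA replication and mitosis 1 of 113 genes was higher (0.885%) and 3 lower (2.65%), below the 5.82% and 5.34% of all genes (median 0.07). The centriole kinase plk4.L had 97.0 and 101 in liver buds and 239 and 271 in stomach buds (-1.36 ± 0.19, adjusted p = 0.0177). The calls of ccnb2.L (1.3 ± 0.26), ccna1.L (-2.67 ± 0.56) and gmnn.S (-1.40 ± 0.29) were lost with the block, at adjusted p of 0.0627, 0.0723 and 0.0717. Of the 6 sterol synthesis genes 0 passed in limma and 0 had an unadjusted p under 0.05, against 25.8% of all genes. The brightest were dhcr7.S at 0.54 ± 0.23 and fdps.S at 0.49 ± 0.22. Of 10 haem and iron genes the reductase cybrd1.L was called, with 188 and 255 in liver buds and 41.0 and 66.7 in stomach buds (2.06 ± 0.36, adjusted p = 0.0318).

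Both copies of a gene were measured in 1017 pairs. In 29 pairs both copies were higher in liver and in 21 both were lower. In 138 pairs a single copy was called, and in 105 of these the other copy had the same sign. Over the 1017 pairs 120 L copies and 120 S copies were called. The share of all pairs with the same sign in both copies was not counted, so the 105 have no background here. The log2 differences of the L and S copies correlated at 0.649 across pairs, which share arrays and in part probe sequence. The ratio of L to S intensity itself differed between the organs in 51 pairs (5.01%) by limma with adjustment over the pairs, and 213 pairs had an unadjusted p under 0.05. The L copy was relatively higher in liver in 28 of the 51 and the S copy in 23. With any 1 array left out 0 pairs passed in limma and 155 to 198 had an unadjusted p under 0.05. With the liver and stomach arrays alone 0 passed and 194 had one.

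Among pairs whose L copy was relatively higher in liver, cysteine dioxygenase had the largest difference: the ratio of L to S of cdo1 differed by 6.34 ± 0.81 on the log2 scale (adjusted p = 0.0312). Its S copy, cdo1.S, had 52.7 and 45.9 in liver buds and 23.4 and 39.8 in stomach buds. For cyp1a1 the ratio differed by 5.75 ± 0.41 (adjusted p = 0.0144), and cyp1a1.S, with 111 and 136 in liver buds and 35.3 and 43.2 in stomach buds, was itself higher (adjusted p = 0.0191). Stomach values of cdo1.L and cyp1a1.L lay near the bottom of the scale. With 16 added their liver to stomach ratios fell from 131 to 46.0 and from 169.5 to 40.3. For cfb the ratio differed by 4.29 ± 0.65 (adjusted p = 0.0354). The S copy cfb.S had 11.3 and 4.37 in liver buds and 5.91 and 1.42 in stomach buds (1.28 ± 0.80, adjusted p = 0.404). All of its values lay under 16, near the bottom of the scale, so they cannot tell whether this copy differed. In these pairs the L copy, described above, had the larger log2 difference.

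For ldhb and tpm2 the S copy carried the stomach difference. The lactate dehydrogenase gene ldhb.S had 188 and 169.7 in liver buds and 3716 and 1745 in stomach buds (-3.83 ± 0.39, adjusted p = 0.00913), while ldhb.L had 103 and 164 in liver buds and 52.0 and 56.5 in stomach buds (adjusted p = 0.055). The ratio of L to S of ldhb differed by 5.10 ± 0.50 (adjusted p = 0.0238), and that of tpm2 by 4.35 ± 0.31 (adjusted p = 0.0144). The tropomyosin copy tpm2.L had 131 and 105 in liver buds and 102 and 46.7 in stomach buds.

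The S copy was relatively higher in liver in the other class. For cdh2 the ratio differed by -4.51 ± 0.76 (adjusted p = 0.0408, and 0.068 with the block), with cdh2.S at 49.5 and 38.8 in liver buds and 5.53 and 3.69 in stomach buds, and cdh2.L at 103 and 24.5 in liver buds and 103 and 135 in stomach buds (-1.23). Other probe sets of cdh2.L lay at 0.96 and -0.55, the first with the opposite sign, so the size of the cdh2 difference depends on the probe set. For fuca1, a lysosomal fucosidase, it differed by -3.98 ± 0.58 (adjusted p = 0.0354), with fuca1.L at 3.81 and 5.06 in liver buds and 80.7 and 48.1 in stomach buds. For npl, an enzyme of sialic acid breakdown, it differed by -3.75 ± 0.54, and for hao2 by -2.87 ± 0.34. With 16 added these 4 became -2.49, -2.04, -1.62 and -2.80. The differences of cdh2, fuca1 and npl thus shrank, and that of hao2 changed little. Values of cdh2.S in stomach buds and of fuca1.L in liver buds lie near the bottom of the scale.

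Opposite calls of the copies occurred in a single pair, frrs1. There frrs1.L had 97.5 and 163 in liver buds and 379 and 386 in stomach buds (-1.60 ± 0.30, adjusted p = 0.0368). Its partner frrs1.S had 539 and 428 in liver buds and 204 and 147 in stomach buds (1.47 ± 0.26, adjusted p = 0.0306). The ratio of L to S of frrs1 differed by -3.07 ± 0.43 (adjusted p = 0.0354), with no overlap between the organs for either copy.

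**Figure D5:**
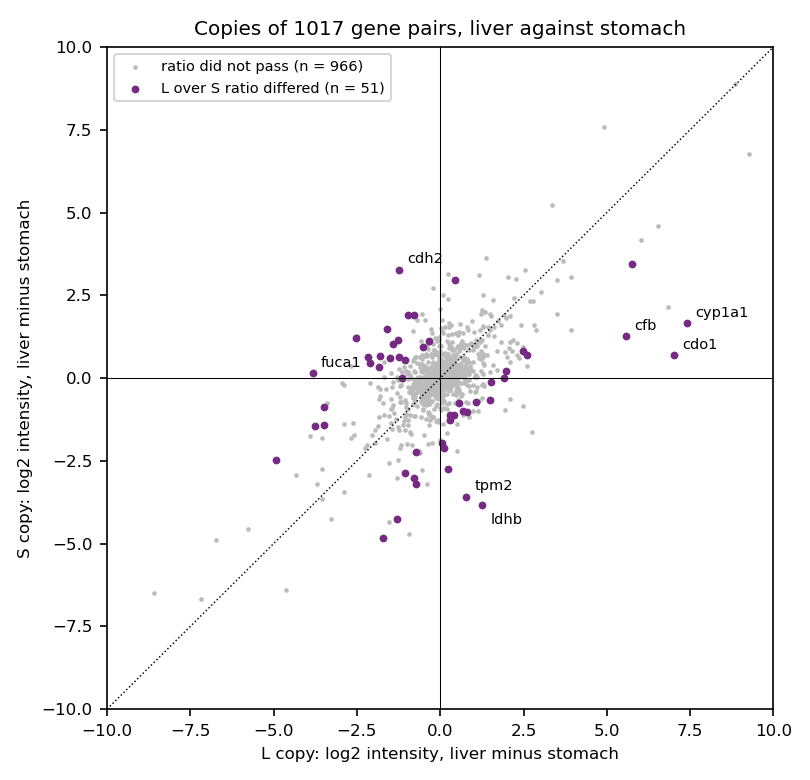
Log2 difference liver minus stomach of the L copy (horizontal axis) against that of the S copy (vertical axis) in 1017 pairs, with the 51 pairs whose L to S ratio differed between the organs coloured. Labelled pairs such as cdo1, cyp1a1 and ldhb lie far from the diagonal.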

How the data were processed

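The deposited table holds 1 intensity per probe set and array on a linear scale, and the submitters' processing notes name RMA but no version of it. Per the series' design text the data were refined in Expressionist; the sources used here give no other steps, no detection calls and no genome build. Every array had a median of 100 over its 15611 rows, so values had been scaled, and no depth or background can be set. Groups came from the array titles. Control rows (120) were left out. Genes were named from the platform annotation, 9227 of 9304 one-symbol probe sets also through their gene identifier in RefSeq (2 symbols updated). For 1293 genes with several probe sets the brightest stood for the gene, and 1597 of 1773 other probe sets had the same call. In most of these 1597 neither probe set passed. Both passed, in the same direction, in 56 cases, and only one of both passed in 176.

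Log2 intensities of all 6 arrays were fitted with limma 3.58.1 under R 4.3.3 (lmFit on organ means, eBayes, Benjamini-Hochberg over 15491 probe sets, threshold 0.05), with 3 residual and 2.14 prior degrees of freedom. P-values measure the spread between isolations. The isolation numbers share an experiment code, and deviations of liver and stomach correlated at 0.152 (0.417 for means over 100), so they were taken to pair the arrays. The main fit left this pairing out, so the reported p-values are unpaired. The block with isolation was an alternative, among 11. The script was tested on simulated data. Genes named were, per direction, the 15 largest called differences without overlap between the organs and with intensities of at least 100 in the higher organ. Also named were, per direction, the 10 brightest with a ratio over 3, up to 6 per list and 5 copy pairs. Added to these were 5 bright genes with narrow intervals. Some genes under these rules are not described above. Among them, LOC398631 differed by 8.22 ± 1.35 (adjusted p = 0.0267) and cbr1.2.S by -2.21 ± 0.29 (adjusted p = 0.0157). Genes outside the rules are marked as named after their values were seen. Members, lists and rules were chosen with earlier results of these data known.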

Additional observations from a re-analysis of the deposited data

How the results depend on the processing

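With the liver and stomach arrays alone 483 probe sets were higher in liver, and leaving out 1 array gave 193 to 360. The count lower in liver ran from 110 to 390 with 1 array left out. For the copy pairs, 51 as reported, the count was 0 with the 4 arrays alone, 100 with 16 added to each intensity, and 0 to 0 with any 1 array left out, where 155 to 198 pairs still had an unadjusted p under 0.05 by limma and 194 with the 4 arrays alone. In these fits fewer arrays estimate the spread. With isolation as a replicate block 843 probe sets were higher and 727 lower, and 683 and 598 of those reported were among them. The study's own rule, a plain ANOVA with a ratio over 3, gave 519 and 545. Other settings stayed within 1.5 times the reported counts of probe sets. Of 198 named genes that passed, 174 passed with the block, 148 with the 4 arrays alone and 61 to 111 with 1 array left out. The direction turned for 1 of them: the mean of all probe sets of ckm.L gave 0.0816 (adjusted p = 0.862). Among named genes that did not pass, the sign turned for atp5f1a.L without liver array 2, for fuca1.S without stomach array 1, for atp5mc3.S after quantile normalization and without liver array 1 or stomach array 2, and after quantile normalization for rpl10.S, rpl19.L, rplp0.S and rps13.L, with rps27.S at 0. Intensities under 16 had a median residual SD of 0.849 on the log2 scale, against 0.171 over 1000, so ratios of dim genes are the least precise.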

Other observations

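Genes described here were counted in no gene list. Some, such as ckb.L, came under the naming rule, and the others were picked with their values in view. Receptors and circulating factors stood among the genes higher in liver. The insulin-like growth factor igf3.L had 336 and 247 in liver buds and 6.71 and 6.13 in stomach buds (5.49 ± 0.23, adjusted p = 0.00385 by limma), a ratio of 44.9 and of 13.6 with 16 added. The sex hormone-binding globulin shbg.S had 3745 and 2148 in liver buds and 62.8 and 56.6 in stomach buds (5.57 ± 0.31, adjusted p = 0.00439). The FGF receptor fgfr4.L had 339 and 293 in liver buds and 62.7 and 66.3 in stomach buds (2.29 ± 0.19, adjusted p = 0.0065). All 3 passed with each array left out in turn. The glucagon receptor gcgr.L had 277 and 251 in liver buds and 27.6 and 33.6 in stomach buds (3.12 ± 0.60, adjusted p = 0.0408, and 0.0507 with the block). The deiodinase dio3.L, which inactivates thyroid hormone, had 556 and 223 in liver buds and 4.79 and 6.79 in stomach buds (5.95 ± 0.82, adjusted p = 0.018), and the polyol enzyme sord.L had 8996 and 6260.4 in liver buds and 599 and 409 in stomach buds (3.92 ± 0.35, adjusted p = 0.00742).

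Several single genes of energy metabolism were called. Lactate dehydrogenase A, ldha.S, had 2819 and 1611 in liver buds and 381 and 413 in stomach buds (2.43 ± 0.33, adjusted p = 0.0171), whereas ldhb.S lay on the stomach side. Brain-type creatine kinase, ckb.L, had 752 and 543 in liver buds and 9093 and 5315 in stomach buds (-3.44 ± 0.33, adjusted p = 0.008), and idh2.S, the mitochondrial NADP-dependent isocitrate dehydrogenase, had 682 and 656 in liver buds and 5814 and 4279.9 in stomach buds (-2.90 ± 0.27, adjusted p = 0.00786). Hexokinase hk1.L (-1.75 ± 0.22, adjusted p = 0.014) and pyruvate kinase pkm.S (-1.56 ± 0.20, adjusted p = 0.0157) were lower too.

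The procentriole gene sass6.L had 47.1 and 88.2 in liver buds and 736 and 775 in stomach buds (-3.55 ± 0.37, adjusted p = 0.00946), and the centriole gene poc5.L had 59.9 and 74.2 in liver buds and 332 and 313 in stomach buds (-2.27 ± 0.24, adjusted p = 0.00965). The axonemal gene cfap161.L had 10.6 and 6.86 in liver buds and 222 and 165 in stomach buds (-4.49 ± 0.32, adjusted p = 0.00551), a ratio of 22.5 and of 8.42 with 16 added. The vesicle GTPase rab27a.L, known for regulated secretion, had 37.0 and 41.4 in liver buds and 542 and 381 in stomach buds (-3.54 ± 0.25, adjusted p = 0.00551), and its copy rab27a.S differed by -2.74 ± 0.30 (adjusted p = 0.0102).

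The liver arrays were unequal for some genes: ptgds-b, of the lipocalin-type prostaglandin D synthases, had 9174 and 3466 in liver buds and 25.7 and 28.4 in stomach buds (7.71 ± 1.00, adjusted p = 0.0157). The gastric gland and mucous cell list was written to hold ptgds, but the symbol ptgds-b was not matched to it. This gene, higher in liver, was therefore not counted there. Of the probe sets with no gene symbol 238 were higher (3.97%) and 266 lower (4.44%), and they cannot be described further here. Among probe sets with 1 symbol the shares were 5.56% higher and 4.78% lower.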
